A study of Saccharomyces cerevisiae with 16 samples.

Results

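The first 900 nucleotides (nt) of yeast 18S ribosomal RNA, which hold its 5′ domain and part of its central domain, were examined in PSI-seq libraries, in which each read counts 1 stop of reverse transcription at 1 nucleotide. The 900 nt were taken by position alone, from the first of the 2 listed copies of the rDNA repeat, out of 1800 nt of 18S rRNA and 5704895 listed positions in all. The 18S gene of that copy, RDN18-1, lies on the reverse strand of chromosome XII at 455933 to 457732 in the R64 assembly, and the deposited position is 1 above the R64 coordinate of the same nucleotide. Within nt 1 to 900, 8 nucleotides are marked as known pseudouridines in all 4 condition lists of the study, namely nt 106, 120, 211, 302, 466, 632, 759 and 766.

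Pseudouridine is the isomer of uridine in which the base is joined to the sugar through carbon, and in rRNA it is made by the synthase Cbf5 in complex with H/ACA small nucleolar RNAs, each of which pairs with the rRNA around its target. CMCT is a carbodiimide that forms a stable adduct on pseudouridine, and reverse transcriptase, which travels towards the 5′ end of the RNA, halts where it meets the adduct. The small ribosomal subunit is built around 18S rRNA, and its modified nucleotides serve as internal controls for this chemistry because their places are known.

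All RNA came from strain BY4741, as 4 experiments with 4 libraries each. Heat shock was 30 min at 45 °C, stationary phase cells were labelled at an optical density of 4, and the log-phase libraries, at 0.8, are named by what the rest of their culture was used for, here pre-heat-shock and pre-stationary log phase. The methods state that heat shock and pre-heat-shock cells were parts of 1 culture, and stationary and pre-stationary cells parts of the other. In each experiment, natural poly(A)-selected RNA and RNA transcribed in vitro (IVT), which lacks modifications and had IVT 18S and 25S rRNA added, were each split into a part treated with CMCT (+CMCT) and a mock-treated part (−CMCT), and the 4 libraries were combined for 1 sequencing run. Natural 18S reads are therefore rRNA left after poly(A) selection.

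Natural +CMCT libraries held 114324 to 251052 reads on nt 1 to 900 and natural −CMCT libraries 30327 to 176910, the lowest being stationary phase. In IVT RNA there were 3612 to 19215 +CMCT reads and 1344 to 26336 −CMCT reads on the same nucleotides. Reads were present in all 8 natural libraries at 866 of the 900 nt, but in all 16 libraries at 335. Intervals given below are 95% intervals that cover counting error only, with each read taken as independent. The reads carry no molecular identifiers, so PCR copies count as separate reads and the intervals can be too narrow.

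With CMCT, stops in natural RNA piled up at the 8 marked nucleotides. Together the 8 took 33.8% of the natural +CMCT reads on nt 1 to 900 in heat shock (Wilson interval 33.7 to 34.0%), 16.03% in stationary phase (15.8 to 16.2%), 37.8% in pre-heat-shock log phase (37.5 to 38.0%) and 23.6% in pre-stationary log phase (23.4 to 23.8%). In the −CMCT libraries the same nucleotides held 1.68% of the reads in heat shock, 2.32% in stationary phase, 1.69% in pre-heat-shock log phase and 1.53% in pre-stationary log phase. At each of the 8, the lowest of the 4 +CMCT read counts lay above the highest of the 4 −CMCT counts. As shares of the reads on nt 1 to 900 the groups were likewise apart at 8 of the 8, and so were they, with +CMCT higher, at 26 of the 876 nt more than 1 nt from a marked one, or 2.97%.

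**Figure D1:**
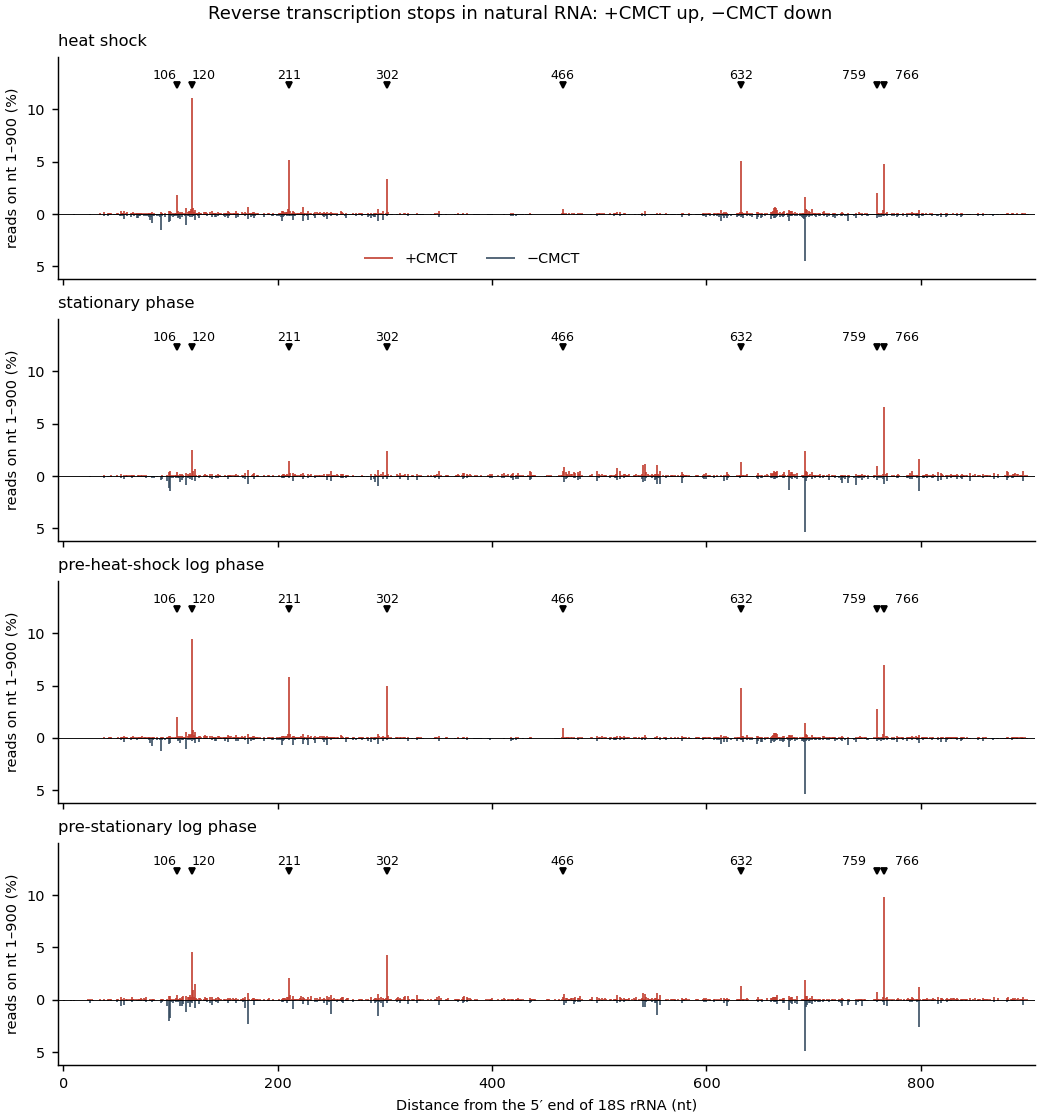
Share of natural reads on nt 1 to 900 at each nucleotide of 18S rRNA (x axis, nt from the 5′ end), +CMCT upwards and −CMCT downwards, one panel per experiment, with triangles at the 8 marked nucleotides. The tallest +CMCT stop is nt 120 in heat shock and pre-heat-shock log phase, and nt 766 in stationary phase and pre-stationary log phase, while nt 692 is the tallest −CMCT stop in all 4.

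edgeR's quasi-likelihood test of +CMCT against −CMCT in the 8 natural libraries, with the experiment as a block, called 8 of the 8 marked nucleotides higher with CMCT. The background was 2890 of 604374 positions called higher, or 0.478%, and 275 called lower, or 0.0455%. Fitted log2 fold changes of the 8 ran from 2.54 to 4.61 with a median of 4.36, beside a median of -0.20 over the 900 nt and 0.59 over all positions tested. Only the log phase has more than 1 experiment, and the 4 blocks come from 2 cultures, so these p-values can be too small.

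Nt 632 at XII 457101, one of the targets of the snoRNA snR161, had the largest fitted change, 4.61 ± 0.42 (SE, adjusted p = 5.03e-23, edgeR). It had 12713 +CMCT against 493 −CMCT reads in heat shock, 1709 against 24 in stationary phase, 5425 against 194 in pre-heat-shock log phase and 1911 against 41 in pre-stationary log phase. Its −CMCT reads were uneven between the cultures, with 0.279% of the reads on nt 1 to 900 in heat shock and 0.245% in pre-heat-shock log phase, but 0.0791% in stationary phase and 0.0467% in pre-stationary log phase.

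Nt 766 at XII 456967, the other nucleotide paired with snR161 here, followed at 4.59 ± 0.42 (SE, adjusted p = 2.21e-22, edgeR). It had 12033 +CMCT against 252 −CMCT reads in heat shock, 8688 against 245 in stationary phase, 8006 against 195 in pre-heat-shock log phase and 14068 against 445 in pre-stationary log phase. Unlike the other 7, it had its highest +CMCT count in pre-stationary log phase and not in heat shock.

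Nt 120, 211 and 302, at XII 457613, 457522 and 457431, are all targets of snR49. Nt 120 had 27810 +CMCT against 517 −CMCT reads in heat shock, 3280 against 106 in stationary phase, 10831 against 234 in pre-heat-shock log phase and 6538 against 288 in pre-stationary log phase, a fitted change of 4.51 ± 0.43 (SE, adjusted p = 2.77e-21, edgeR). The heat shock value was the highest count of any marked nucleotide, 11.1% of the natural +CMCT reads on nt 1 to 900.

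Nt 211 had 12950 +CMCT against 339 −CMCT reads in heat shock, 1907 against 48 in stationary phase, 6705 against 164 in pre-heat-shock log phase and 3000 against 115 in pre-stationary log phase. Nt 302 had 8491 +CMCT against 339 −CMCT reads in heat shock, 3091 against 96 in stationary phase, 5724 against 138 in pre-heat-shock log phase and 6162 against 244 in pre-stationary log phase. Their fitted changes, 4.49 ± 0.42 and 4.23 ± 0.41 (SE, adjusted p = 5.57e-22 and 3.58e-20, edgeR), stood within 1 SE of that of nt 120, the first snR49 target.

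Nt 466 at XII 457267, a target of snR189, had the fewest −CMCT reads of the 8 in every experiment. It had 1253 +CMCT against 91 −CMCT reads in heat shock, 565 against 18 in stationary phase, 1053 against 43 in pre-heat-shock log phase and 418 against 21 in pre-stationary log phase. Its fitted change was 3.74 ± 0.40 (SE, adjusted p = 5.09e-16, edgeR), while it took only 0.291% to 0.921% of the +CMCT reads on nt 1 to 900. The call was lost without the block (adjusted p = 0.0628).

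Nt 106 at XII 457627, a target of snR44, had 4611 +CMCT against 368 −CMCT reads in heat shock, 511 against 40 in stationary phase, 2246 against 107 in pre-heat-shock log phase and 677 against 40 in pre-stationary log phase. Nt 759 at XII 456974, a target of snR80 that lies 7 nt from nt 766, had 5116 +CMCT against 576 −CMCT reads in heat shock, 1241 against 127 in stationary phase, 3169 against 263 in pre-heat-shock log phase and 1085 against 152 in pre-stationary log phase. These were the 2 smallest fitted changes, 3.28 ± 0.39 (SE, adjusted p = 1.78e-12) at nt 106 and 2.54 ± 0.38 (SE, adjusted p = 2.48e-07) at nt 759 by edgeR. The call at nt 759 was lost without the pre-heat-shock log phase (adjusted p = 0.314), the highest adjusted p of any marked nucleotide over the alternatives run, and also without the block.

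**Figure D2:**
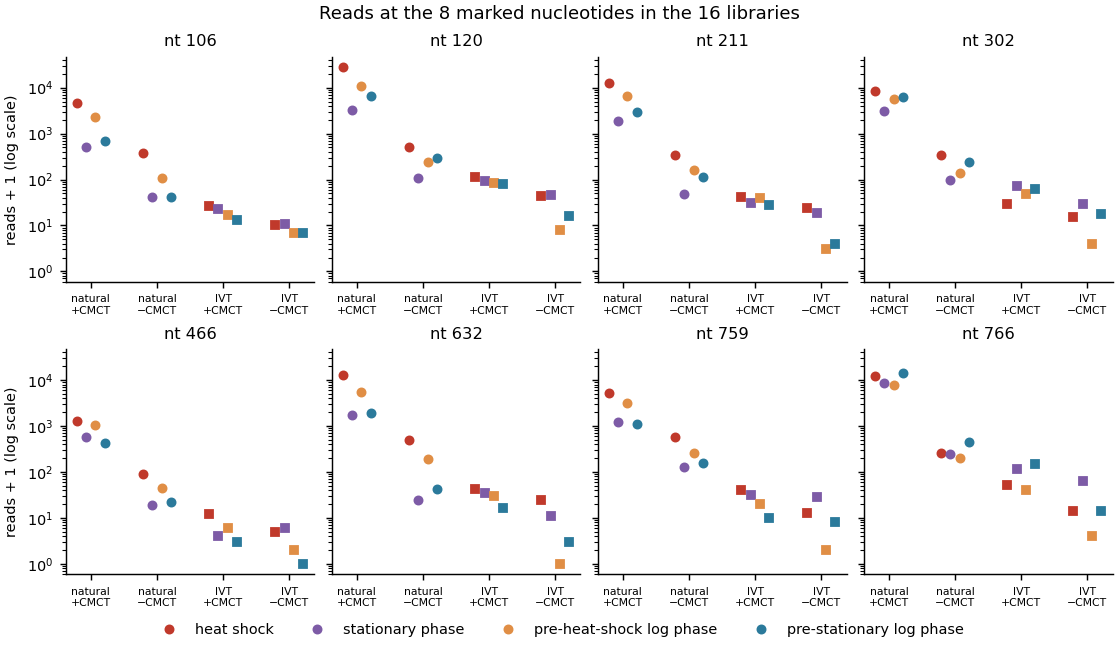
Reads plus 1 (y axis, log scale) at the 8 marked nucleotides in natural +CMCT, natural −CMCT, IVT +CMCT and IVT −CMCT libraries, one point per experiment. At every site all 4 natural +CMCT points lie above all 4 natural −CMCT points, and the IVT points lie at or below 150 reads.

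The ratio of +CMCT to −CMCT reads was next taken within each experiment, after 1 read was added to each count at the site and both were divided by the reads on the 876 nt that lie more than 1 nt from any marked nucleotide. On this scale nt 120 had 58.4 times as many stops with CMCT in heat shock (exact conditional interval 53.6 to 63.9), 8.39 times in stationary phase (6.97 to 10.4), 52.7 times in pre-heat-shock log phase (46.5 to 60.5) and 18.4 times in pre-stationary log phase (16.4 to 20.9). Nt 759 had ratios of 9.64 in heat shock (8.86 to 10.5), 2.65 in stationary phase (2.23 to 3.23), 13.7 in pre-heat-shock log phase (12.2 to 15.7) and 5.78 in pre-stationary log phase (4.90 to 6.93). At both sites stationary phase lay below the interval of every other experiment, while the replicate error of heat shock and stationary phase, with 1 experiment each, is unknown.

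Averaged over the 4 experiments, the scaled log2 ratio was 4.81 ± 0.42 at nt 632, 4.80 ± 1.11 at nt 766, 4.71 ± 1.33 at nt 120, 4.68 ± 0.98 at nt 211, 4.45 ± 1.02 at nt 302, 3.91 ± 0.71 at nt 466, 3.46 ± 1.19 at nt 106 and 2.75 ± 1.03 at nt 759 (SD, n = 4). Each of these sites differed from its neighbour in the order by less than 1 SD. Within every experiment nt 759 was the lowest of the 8. Ranked by the ratio among all 900 nt, it had rank 9 in heat shock, 60 in stationary phase, 8 in pre-heat-shock log phase and 25 in pre-stationary log phase.

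The 8 marked nucleotides were the top 8 of 900 in pre-heat-shock log phase, and 7 of them were in the top 8 in heat shock and in pre-stationary log phase. In stationary phase 6 were, with nt 106 at rank 34. The highest unmarked ratios rested on few reads, such as 15 +CMCT against 0 −CMCT reads at nt 339 in heat shock, 135 against 4 at nt 546 in stationary phase and 19 against 0 at nt 508 in pre-stationary log phase.

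The 2 cultures divided the stops differently among some of the 8 sites. Of the +CMCT reads on the 8, nt 120 took 32.7% in heat shock and 25.1% in pre-heat-shock log phase, but 15.6% in stationary phase and 19.3% in pre-stationary log phase. Nt 766 took 14.2% in heat shock and 18.6% in pre-heat-shock log phase, but 41.4% in stationary phase and 41.5% in pre-stationary log phase. Nt 466 did not follow the cultures, at 1.47% in heat shock and 2.44% in pre-heat-shock log phase, and 2.69% in stationary phase and 1.23% in pre-stationary log phase. Nt 759 took 6.02% in heat shock and 7.34% in pre-heat-shock log phase, and 5.91% in stationary phase and 3.20% in pre-stationary log phase. Nt 632 and nt 106 sided with nt 120. They took 14.96% and 5.43% in heat shock and 12.6% and 5.20% in pre-heat-shock log phase. In stationary phase they took 8.14% and 2.43%, and in pre-stationary log phase 5.64% and 2.00%. Nt 211 did so too, at 15.2% in heat shock, 15.5% in pre-heat-shock log phase, 9.08% in stationary phase and 8.86% in pre-stationary log phase. Nt 302 sided with nt 766, at 9.99% in heat shock, 13.3% in pre-heat-shock log phase, 14.7% in stationary phase and 18.2% in pre-stationary log phase.

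The same pairing ran through the unmarked nucleotides. Over the 876 nt, log2 −CMCT reads of heat shock and pre-heat-shock log phase had a Pearson correlation of 0.938, and those of stationary and pre-stationary phase 0.846, while the 4 pairs across cultures had 0.680 to 0.758. These values describe the libraries, whose 876 nt share base composition and depth. Culture, fragmentation and library preparation cannot be told apart here.

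The comparison of heat shock with log phase asks whether the CMCT effect at a site depended on heat. The fitted log2 difference, heat shock minus log phase, ran from -0.77 ± 0.82 at nt 466 to 0.68 ± 0.99 at nt 120 (SE), with 3 of 8 above zero and a median of -0.27, beside -0.38 over the 900 nt. None of the 8 and 0 of the 900 nt were called by edgeR, against a background of 0% of 604374 positions in either direction. At an unadjusted p under 0.05 there were 0 marked sites, 2 of the 900 nt (0.222%) higher and 15 (1.67%) lower, beside 0.166% higher and 0.282% lower of all positions. The scaled ratio of heat shock lay above both log-phase values at 2 sites (nt 120 and 766), below both at 2 (nt 466 and 632) and between them at 4. Against the pre-heat-shock log phase of its own culture it was lower at 6 of the 8, such as 4.76 against 5.56 on the log2 scale at nt 302, and higher at nt 120 and 766.

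The study reported that known pseudouridines of rRNA were less enriched in its stationary phase libraries. It left these libraries out of its later work for lower technical quality, so growth condition and library quality cannot be told apart here. Stationary phase had the lowest scaled ratio of the 4 experiments at 8 of the 8 sites. Its median scaled log2 ratio was 3.10, against 5.27 in pre-heat-shock log phase and 4.28 in pre-stationary log phase, and heat shock had 4.78. The fitted difference, stationary minus log phase, ran from -1.56 ± 0.88 at nt 106 to 0.0016 ± 0.61 at nt 632 (SE). The SE at nt 632 is unreliable, being a ratio of 2 values near zero, and the other 7 SEs were 0.88 to 1.01. The difference was below zero at 7 of 8 sites, with a median of -0.94, while the median of all 900 nt was 0.63. With library totals alone all 8 were below zero, from -2.27 at nt 106 to -0.71 at nt 632. No marked site passed an unadjusted p under 0.05, though 57 other nt of the 900 (6.33%) were higher and 2 (0.222%) lower at that level, beside 0.612% and 0.274% of all positions. edgeR called 0 of 900, with 0% of 604374 positions as background.

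Both fits have 1 residual degree of freedom and take the lone experiment to vary like the log-phase ones, so differences of the sizes above were not detectable and are not shown to be absent. With library totals as the scale, stationary phase was again lowest at 8 of the 8 sites, with a median log2 ratio of 2.50. Its natural libraries were the least even in depth, with 130939 +CMCT against 30327 −CMCT reads on nt 1 to 900.

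**Figure D3:**
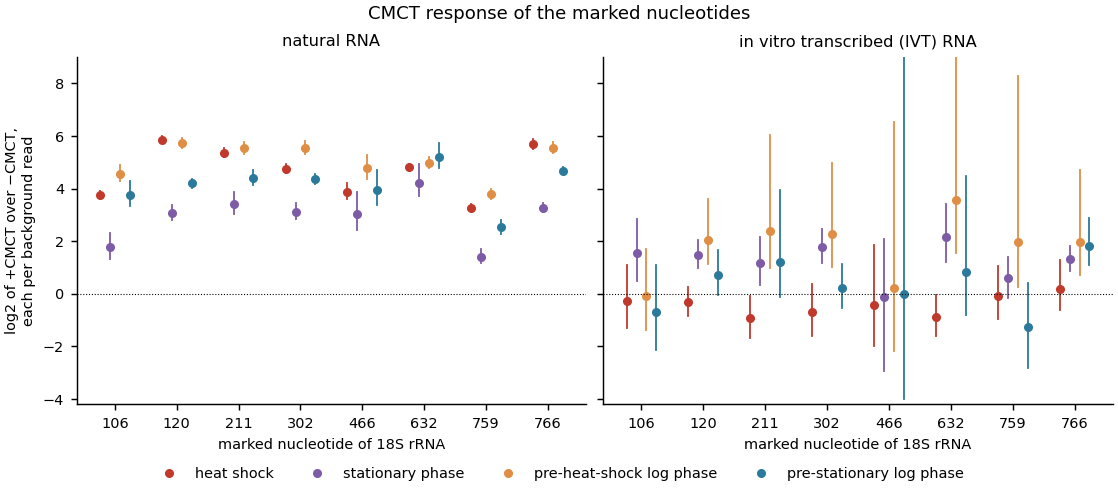
Log2 ratio of +CMCT to −CMCT reads per background read (y axis) at the 8 marked nucleotides in natural RNA (left) and IVT RNA (right), by experiment, with bars for 95% exact counting intervals, cut off at the panel edges where they run beyond. Stationary phase is lowest at every natural site, and IVT bars are far wider than natural ones.

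Stops also rose on the nucleotides beside the marked ones. Of the 16 nt that lie 1 nt from a marked site, edgeR called 6 higher and 0 lower with CMCT in natural RNA (background 0.478% higher), namely nt 119, 121, 210, 212, 303 and 767. A positive scaled log2 ratio in all 4 experiments was seen at 10 of the 16, but the share of unmarked nt that reach this was not counted. All 6 calls were lost without the pre-heat-shock log phase and without the block, and those at nt 119 and 210 also without heat shock, while the fitted changes stayed positive. With at least 3 reads as the minimum nt 119, 210 and 212 lost theirs, and nt 119 did so too with library totals alone, with at least 50 reads and with every listed position. When the CMCT effect in natural RNA was compared with that in IVT RNA, 0 of the 16 were called.

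On the 3′ side, nt 121 had the largest change of the 16, 2.77 ± 0.38 (SE, adjusted p = 4.02e-09, edgeR). It had 1388 +CMCT against 258 −CMCT reads in heat shock, 627 against 28 in stationary phase, 859 against 110 in pre-heat-shock log phase and 1354 against 87 in pre-stationary log phase. Its +CMCT reads were 4.99% of those at nt 120 in heat shock and 7.93% in pre-heat-shock log phase, but 19.1% in stationary phase and 20.7% in pre-stationary log phase. The share at this 3′ neighbour thus divided by culture too.

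Nt 212 showed the same division, with 5.20% and 5.98% of the +CMCT reads of nt 211 in heat shock and pre-heat-shock log phase against 22.4% and 21.1% in stationary and pre-stationary phase. Its fitted change was 1.87 ± 0.37 (SE, adjusted p = 9.51e-04, edgeR). Nt 303 and nt 767 had fitted changes of 1.91 ± 0.37 and 2.26 ± 0.39 (SE, adjusted p = 6.21e-04 and 2.87e-05, edgeR), with 5.18% to 9.54% and 2.13% to 2.85% of the +CMCT reads of nt 302 and nt 766.

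On the 5′ side, nt 210 and nt 119 were called, at 1.87 ± 0.38 and 1.46 ± 0.38 (SE, adjusted p = 0.00115 and 0.0280, edgeR). Nt 210 had 1128 +CMCT against 153 −CMCT reads in heat shock, 125 against 28 in stationary phase, 435 against 67 in pre-heat-shock log phase and 353 against 70 in pre-stationary log phase. Its scaled log2 ratio was 2.99 in heat shock, 0.25 in stationary phase, 2.87 in pre-heat-shock log phase and 2.02 in pre-stationary log phase. The median over the 8 neighbours on the 5′ side was 1.32 in heat shock, -0.16 in stationary phase, 1.46 in pre-heat-shock log phase and 0.55 in pre-stationary log phase.

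The median over the 8 neighbours on the 3′ side was 1.01 in heat shock, 1.41 in stationary phase, 1.70 in pre-heat-shock log phase and 1.23 in pre-stationary log phase. In stationary phase the 3′ neighbour exceeded the 5′ one at 7 of 8 sites, against 3 of 8 in heat shock, 4 of 8 in pre-heat-shock log phase and 5 of 8 in pre-stationary log phase. Neither neighbour was called at nt 106, 466, 632 and 759. Nt 467 stood out in another way, with 1180 +CMCT and 169 −CMCT reads in stationary phase and 811 and 430 in pre-stationary log phase, more than nt 466 itself in each of those 4 libraries.

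**Figure D4:**
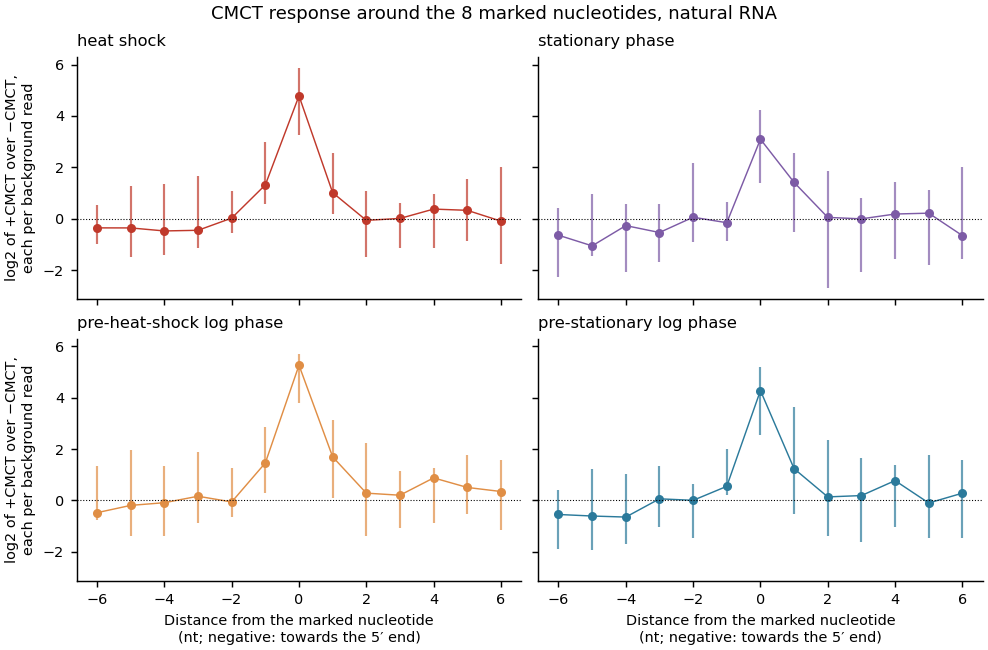
Median (points) and range (bars) over the 8 marked nucleotides of the log2 ratio of +CMCT to −CMCT reads per background read in natural RNA, by distance from the marked nucleotide in nt, one panel per experiment. The response is highest at distance 0, falls to 1.01 to 1.70 on the 3′ side at 1 nt, and on the 5′ side at 1 nt ranges from -0.16 in stationary phase to 1.46 in pre-heat-shock log phase.

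In the whole region, 26 of 900 nt (2.89%) were called higher and 37 (4.11%) lower with CMCT in natural RNA. With library totals alone as the scale the counts were 16 higher and 153 lower, and with DESeq2 89 higher and 186 lower. The 26 higher calls were 7 without the pre-heat-shock log phase, 15 without heat shock and 6 without the block. Outside the marked and adjacent nucleotides, 12 were called higher. The 6 with the largest changes were nt 546, 413, 318, 889, 532 and 310, at log2 fold changes of 2.09, 1.88, 1.84, 1.78, 1.77 and 1.62, all below the change at nt 759.

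These 6 had from 2 (nt 413) to 56 (nt 318) −CMCT reads per natural library. The median of the 876 unmarked nt was 120 such reads in heat shock, 18 in stationary phase, 52.5 in pre-heat-shock log phase and 40 in pre-stationary log phase. Nt 546 had 31 +CMCT against 8 −CMCT reads in heat shock, 135 against 4 in stationary phase, 26 against 3 in pre-heat-shock log phase and 86 against 25 in pre-stationary log phase (adjusted p = 0.00665, edgeR). Nt 318, the best covered of them, had 214 +CMCT against 53 −CMCT reads in heat shock, 170 against 18 in stationary phase, 144 against 33 in pre-heat-shock log phase and 370 against 56 in pre-stationary log phase (adjusted p = 0.00171, edgeR). All 6 lost their call without the pre-heat-shock log phase and without the block, 4 also without heat shock (nt 546, 413, 889 and 310) and 3 also without stationary phase (nt 546, 413 and 889), with their log2 fold changes still positive. At a minimum of 3 reads only nt 318 kept its call. In IVT RNA the fitted changes were 1.47 at nt 318, 1.18 at nt 532, 0.71 at nt 310, 0.66 at nt 546 and -0.41 at nt 413. Their SEs were 0.95 to 1.79, none was called, and nt 889 was not tested. Natural minus IVT ran from 0.21 ± 1.07 at nt 318 to 2.24 ± 1.51 at nt 413 (SE), and none of the 6 was called.

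The nucleotides called lower lay mostly to the 5′ side of marked ones. Of the 37, 34 (91.9%) were 2 to 50 nt on the 5′ side of a marked nucleotide, a zone that holds 315 of the 900 nt (35.0%), and 7 (18.9%) were 2 to 50 nt on the 3′ side, also 315 nt. Most fell into runs with gaps of at most 10 nt at nt 80 to 109, with 14 of the 37, and at nt 722 to 763, with 15. Of the 12 higher nt outside marked and adjacent ones, 0 lay in the 5′ zone and 7 in the 3′ zone. The 50 nt window and the 10 nt gap were chosen after these positions were seen, and no test was made of them. The count of lower calls was 1 without the pre-heat-shock log phase, 129 without the pre-stationary log phase, 153 without stationary phase and 0 without the block.

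IVT RNA was the unmodified control. At the 8 marked nucleotides IVT libraries had 2 to 150 +CMCT reads and 0 to 63 −CMCT reads. Nt 120 had 111 +CMCT against 42 −CMCT reads in heat shock, 93 against 46 in stationary phase, 84 against 7 in pre-heat-shock log phase and 78 against 15 in pre-stationary log phase. At nt 632 in pre-heat-shock log phase there were 0 −CMCT reads of 1344, which allows a share of up to 0.223% (3 reads of 1344), and 29 +CMCT reads.

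edgeR called 0 of the 8 marked sites and 0 of the 848 nt tested in IVT RNA, against a background of 0% higher and 0.000727% lower of 550477 positions. The fitted log2 fold changes of the 8 were all positive, from 0.66 ± 1.12 at nt 466 to 1.84 ± 0.86 at nt 632 (SE), beside a median of 0.38 over the region, and 3 of the 8 had an unadjusted p under 0.05, as did 26 of the 848 nt (3.07%) and 1.45% of all positions in this direction. At 5 of the 6 sites with −CMCT reads in every IVT library, the scaled ratio of each natural experiment exceeded that of every IVT experiment, the exception being nt 759. How often unmarked nt were set apart in this way was not counted. At nt 466 and 632, 1 IVT library had 0 −CMCT reads, so its ratio has no upper bound.

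IVT +CMCT reads at the marked sites were a small part of the natural ones. They came to 0.411% of the natural +CMCT reads at the 8 sites in heat shock, 1.91% in stationary phase, 0.646% in pre-heat-shock log phase and 1.05% in pre-stationary log phase. On the 876 unmarked nt the same percentage was 6.34% in heat shock, 17.2% in stationary phase, 4.86% in pre-heat-shock log phase and 13.8% in pre-stationary log phase. The 4 libraries of an experiment were sequenced together, and whether reads were exchanged between them was not tested.

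The study looked for stops that depend on CMCT in natural but not in IVT RNA, which corresponds to the difference of the 2 CMCT effects over all 16 libraries. edgeR called this difference higher in natural RNA at 5 of the 8 marked nucleotides, with a background of 0.00215% higher and 0.00116% lower of 604374 positions. The differences were 2.80 ± 0.41 at nt 120 (SE, adjusted p = 2.63e-06), 2.83 ± 0.49 at nt 211 (adjusted p = 6.80e-04), 2.62 ± 0.47 at nt 302 (adjusted p = 0.00164), 2.60 ± 0.53 at nt 632 (adjusted p = 0.0275) and 2.51 ± 0.43 at nt 766 (adjusted p = 4.31e-04). Nt 106, 466 and 759 had differences of 2.28 ± 0.58, 2.87 ± 0.83 and 1.55 ± 0.54 (SE) with adjusted p = 0.695, 1.0 and 1.0, all 3 with an unadjusted p under 0.05, which 1.47% of all positions reached in this direction.

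The 3 sites not called had 2 to 39 IVT +CMCT reads per library, and the 5 called had 15 to 150. The 5 calls depended on single experiments: 0 were left without heat shock, 0 without the pre-heat-shock log phase and 3 without the pre-stationary log phase. No calls were left with at least 3 or at least 50 natural reads as the minimum, or without the block. With the minimum of 10 reads counted over all 16 libraries, 4 were called and nt 632 was not (adjusted p = 0.227). The differences themselves were above zero at all 8 sites in every alternative, the lowest being 1.29 at nt 759. Without heat shock those of the 5 called sites fell to 1.99 at nt 120, 1.86 at nt 211, 2.04 at nt 302, 1.58 at nt 632 and 1.88 at nt 766.

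At nt 1 to 900, 2 nucleotides were called the other way in the same comparison, nt 732 and nt 91, which are named after their values were seen because only these passed. Neither was called without heat shock, without the pre-heat-shock log phase, without the pre-stationary log phase, with at least 3 reads as the minimum or without the block. Nt 732, 27 nt on the 5′ side of nt 759, had 321 +CMCT against 1094 −CMCT natural reads in heat shock, 123 against 192 in stationary phase, 81 against 552 in pre-heat-shock log phase and 50 against 444 in pre-stationary log phase. Natural minus IVT was -3.79 ± 0.64 (SE, adjusted p = 4.08e-04, edgeR). Nt 91, 15 nt on the 5′ side of nt 106, had 591 +CMCT against 2604 −CMCT reads in heat shock, 51 against 112 in stationary phase, 150 against 956 in pre-heat-shock log phase and 102 against 305 in pre-stationary log phase, with a difference of -3.01 ± 0.58 (SE, adjusted p = 0.0109, edgeR). Per background read, the log2 ratio of natural +CMCT to −CMCT reads at nt 732 was -1.65 in heat shock, -2.51 in stationary phase, -2.56 in pre-heat-shock log phase and -3.42 in pre-stationary log phase, and that at nt 91 was -1.87 or lower in all 4. The region as a whole lay on the same side, with a median natural minus IVT difference of -0.73, beside 0.31 over all positions. At an unadjusted edgeR p under 0.05, 131 of the 900 nt (14.6%) were lower and 13 (1.44%) higher. Of all positions, 0.926% were lower and 1.47% higher at that level.

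Without CMCT, the largest single stop of natural RNA lay outside the marked set. Nt 692 took 5.02 ± 0.41% of the natural −CMCT reads on nt 1 to 900 and 3.76 ± 1.09% of the IVT ones (SD, n = 4 each), where an even spread would give 0.111% per nucleotide. It had 7953 natural −CMCT reads in heat shock, 1623 in stationary phase, 4241 in pre-heat-shock log phase and 4277 in pre-stationary log phase. With CMCT its share was 1.82 ± 0.39%, and its fitted change was -1.20 ± 0.37 (SE, adjusted p = 0.114, edgeR).

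The next 5 nucleotides by natural −CMCT share were nt 798 (1.21 ± 1.06%), nt 99 (1.13 ± 0.65%), nt 100 (1.08 ± 0.60%), nt 172 (1.04 ± 0.86%) and nt 115 (1.04 ± 0.11%). Nt 100 is known as a ribose-methylated adenosine. In IVT RNA the shares were 1.57 ± 1.42% at nt 798, 0.692 ± 0.311% at nt 99, 0.335 ± 0.227% at nt 100, 1.46 ± 0.41% at nt 172 and 1.06 ± 0.36% at nt 115 (SD, n = 4). The natural and IVT values overlapped at all 6 nucleotides. Within experiments, natural exceeded IVT in 4 of 4 at nt 692 and nt 99, 3 at nt 100, 2 at nt 798 and nt 115, and 1 at nt 172, and no test was made of these pairs.

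In natural RNA the spread at nt 798, 99 and 100 again divided by culture, and that at nt 172 came from a single library. Nt 798 held 0.356% in heat shock and 0.445% in pre-heat-shock log phase, but 1.41% in stationary phase and 2.64% in pre-stationary log phase. Nt 99 held 0.763% in heat shock and 0.571% in pre-heat-shock log phase, but 1.15% in stationary phase and 2.03% in pre-stationary log phase. In the same order nt 100 held 0.614% and 0.531%, but 1.39% and 1.77%. Nt 172 held 2.32% in pre-stationary log phase and 0.485% to 0.755% in the other 3 experiments. The IVT −CMCT share was also highest in pre-stationary log phase at nt 798 (3.53%, elsewhere 0.153% to 1.33%) and nt 99 (1.16%, elsewhere 0.520% to 0.570%). So it was at nt 172 (1.95%, elsewhere 1.04% to 1.64%), while at nt 100 it was lowest there (0.162%, elsewhere 0.245% to 0.670%). The cause was not tested. Among the 6, edgeR called nt 99 lower with CMCT (log2 fold change -1.35 ± 0.36, SE, adjusted p = 0.0421), and nt 100 just missed the threshold (-1.32 ± 0.36, adjusted p = 0.0501).

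The marked nucleotides themselves were far smaller stops than nt 692 without CMCT, yet each except nt 466 had a mean share above the even 0.111%. Their mean share of the natural −CMCT reads ran from 0.0472 ± 0.0159% at nt 466 to 0.426 ± 0.297% at nt 766 (SD, n = 4), and the 8 together held 1.81%. Nt 466 had rank 567 of the 900 nt, and the others lay between rank 25 and rank 223. Nt 766 had 0.142% in heat shock, 0.808% in stationary phase, 0.246% in pre-heat-shock log phase and 0.507% in pre-stationary log phase. Nt 120 was the most even, at 0.292% to 0.350%.

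In IVT RNA the −CMCT share was 0.281 ± 0.080% at nt 766 and 0.571 ± 0.497% at nt 120, the highest of the 8. The difference natural minus IVT ran from -0.26 percentage points at nt 120 to 0.14 at nt 766, and natural and IVT values overlapped at all 8 sites. Both ends rested on 1 experiment, since the difference was -0.0091 at nt 120 without heat shock and 0.0035 at nt 766 without stationary phase. Without heat shock the values no longer overlapped at nt 632 and 759, but neither passed with 3 libraries each (exact permutation test, p = 0.1, adjusted p = 0.4). Exact two-sided permutation tests of 4 natural against 4 IVT libraries at each of the 8 sites gave a lowest p of 0.171, at nt 759, before any adjustment, where the smallest the design can give is 0.0286. Once adjusted over the 8 sites, 1 site alone could not pass even at that smallest p. The test also took no account of the experiment each library came from. No difference passed, which does not show that natural and IVT shares are alike. Single IVT values rested on as few as 1344 reads over the region.

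**Figure D5:**
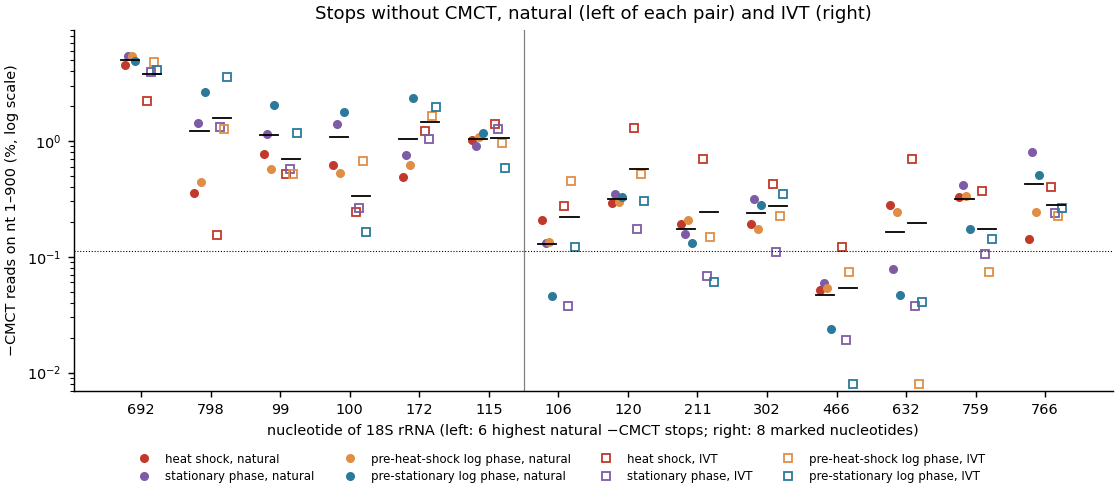
Share of −CMCT reads on nt 1 to 900 (y axis, percent, log scale) at the 6 highest natural −CMCT stops and the 8 marked nucleotides, natural (filled) left of IVT (open) in each pair, with points for the experiments, short lines for means and a dotted line at the even share of 0.111%. The 2 IVT values of 0, at nt 466 and nt 632, are drawn at the lower edge, and natural and IVT points overlap at every nucleotide.

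For comparison, 5 nucleotides are marked in the remaining 3′ part of 18S rRNA. Their median fitted CMCT effect was 3.14 in natural RNA, beside 4.36 for the 8 in nt 1 to 900. Of these 5, edgeR called 4 higher, against a background of 0.478% of 604374 positions. Scaled in the same way to unmarked nucleotides of that part, their median log2 ratio was 3.22 in heat shock, 2.45 in stationary phase, 4.45 in pre-heat-shock log phase and 3.15 in pre-stationary log phase. The median of the 8 was 4.78 in heat shock, 3.10 in stationary phase, 5.27 in pre-heat-shock log phase and 4.28 in pre-stationary log phase. The ranges overlapped in all 4 experiments, and the difference between the 2 sets of sites was not tested.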

How the data were processed

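PSI-seq stops of natural and IVT RNA of strain BY4741 were read from the deposited table, in which the authors gave raw read counts per genome position, with no strand or base. Per the submitters' processing notes, reads were aligned with Bowtie 0.12.5 to sacCer3, and per the methods with at most 2 mismatches. The table lists all 1800 nt of 18S rRNA with equal counts at both rDNA copies. The first copy was used, and positions with the same counts as another one in all libraries (200918 of the 383847 with at least 50 reads) were tested once. Columns name log-phase libraries by the later use of the culture, so they were mapped to the log-phase group and not to a numbered replicate. The members, lists and tests were chosen with earlier results of these data known.

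All positions with at least 10 natural reads (for IVT RNA alone, 10 IVT reads) were fitted with edgeR 4.0.16 (TMM, quasi-likelihood F test, Benjamini-Hochberg threshold 0.05) in R 4.3.3. Which libraries the minimum counts in the natural-minus-IVT fit was settled only after the data were seen. SEs were taken as the log2 fold change over the root of F, which is unreliable for changes near zero. DESeq2 1.42.0 was an alternative. The blocks are the experiments, whose natural RNA was divided into treated and mock parts, and in the natural-minus-IVT fit the 8 combinations of experiment and RNA. Over 58872 positions, deviations of +CMCT and −CMCT libraries of 1 experiment correlated at 0.766 to 0.839, and at most 0.494 with other experiments. Scripts were tested on simulated counts. Shares, ratios and exact tests used scipy 1.17.1, with 1 read added to site counts in ratios. Named were the marked and adjacent nucleotides, up to 6 other nucleotides called higher by fold change, and the 6 highest natural −CMCT stops. Library totals were 3925245 to 25759455 reads as listed. No sequence of this build was used here, so medians by base were not made.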

Additional observations from a re-analysis of the deposited data

Results flagged for a closer look

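A difference of the CMCT effect between natural and IVT RNA was called at 7 of the 900 nt by edgeR's test (all 16 libraries). The background was 0.00215% higher and 0.00116% lower of 604374 positions. The effect was higher in natural RNA at nt 120 (log2 difference 2.80), nt 211 (2.83), nt 302 (2.62), nt 632 (2.60) and nt 766 (2.51), which are marked pseudouridines. It was lower at nt 91 (-3.01) and nt 732 (-3.79), which are not, while the median difference over the 900 nt was -0.73, beside 0.31 over all positions. None of the 7 calls was left without heat shock, without the pre-heat-shock log phase, at a minimum of 3 reads or without the block.

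A library far from the other 3 was met in 4 of the 44 groups of 4 libraries looked at, where chance flags about 5% of groups. In IVT −CMCT RNA, heat shock held 0.704% of the reads on nt 1 to 900 at nt 211, against 0.0609% to 0.149% in the other 3 experiments, and 0.704% at nt 632, against 0 to 0.0406%. Also in IVT −CMCT RNA, nt 99 held 1.16% in pre-stationary log phase, against 0.520% to 0.570%. In natural −CMCT RNA, nt 172 held 2.32% in pre-stationary log phase, against 0.485% to 0.755%.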

How the results depend on the processing

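In natural RNA all 8 marked nucleotides were called higher with CMCT under 5 of the 6 alternatives that kept every library (library totals alone, DESeq2, at least 3 or 50 reads, every listed position), and 6 were with no replicate block. Without each experiment in turn 7 or 8 were. The count of the 26 nt called higher was 16 with library totals alone, 89 with DESeq2, 12 at a minimum of 3 reads, 16 with every listed position and 6 with no replicate block, and ran from 7 to 39 without single experiments. The 37 called lower became 153, 186, 17 and 0 with library totals, DESeq2, at least 3 reads and no replicate block, and 84 at a minimum of 50 reads, and ran from 1 to 153 without single experiments. The 6 adjacent calls were 3 at a minimum of 3 reads and 0 with no replicate block, and ran from 0 to 7 without single experiments.

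The 5 marked nucleotides with a larger effect in natural than in IVT RNA, the only nt called higher, were 0 at a minimum of 3 or 50 reads and 0 with no replicate block, and ran from 0 to 4 without single experiments. With at least 10 reads over all libraries, chosen after seeing the data, nt 632 missed the threshold (adjusted p = 0.227). The 2 nt called lower were 0, 1 and 0 under a minimum of 3 reads, a minimum of 50 reads and no replicate block, 1 with the 10 reads counted over all libraries and 9 with DESeq2, and ran from 0 to 2 without single experiments. The causes were not tested.

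With library totals alone the heat shock minus log phase difference at nt 759 was 0.037 in place of -0.12, and the stationary minus log phase difference was -0.71 in place of 0.0016 at nt 632 and lower at all 8 sites, down to -2.27 in place of -1.56 at nt 106. None was called with either scale. Without heat shock, the natural minus IVT −CMCT share was above zero at nt 211, 302, 466 and 632, against below zero with all libraries. In percentage points, over all single experiments left out, it ran from -0.128 to 0.0727 at nt 211, from -0.118 to 0.0300 at nt 302, from -0.0224 to 0.0147 at nt 466 and from -0.126 to 0.0973 at nt 632. With library totals as the scale, stationary phase had the lowest ratio at 8 of the 8 sites, as in the report, with a median log2 ratio of 2.50 against 3.10. With no scaling at all the ratio also carries the depth of the libraries (130939 +CMCT against 30327 −CMCT reads), and these values, 4.97 and 1 of the 8 sites, do not bear on the order.

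IVT libraries held as few as 1344 reads on nt 1 to 900, and the fits of growth conditions had 1 residual degree of freedom, so differences there were not detectable at the sizes seen. Without a sequence of the build, the alternatives on base classes were not run.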
